A study of Mus musculus with 12 samples.

Results

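The endoplasmic reticulum (ER) chaperones and the genes of the unfolded protein response were followed in mouse liver as a list of 34 gene symbols: 9 chaperones and co-chaperones, 7 lectin chaperones and enzymes of oxidative folding, 5 sensors, transcription factors and regulators, 8 genes of ER-associated degradation (ERAD) and 5 genes of the translocon. All 34 were found among the 35275 genes of the deposited table, and all 34 were among the 12466 genes with a mean of at least 0.5 FPKM (fragments mapped to a gene, scaled to its length and to the size of the library) that were tested. Whole livers of 12 male mice were sequenced, 1 library per mouse and 3 mice in each of 4 groups. Both wild-type (WT) and *Pctp*-/- mice were fed either chow or a methionine and choline-deficient (MCD) diet. *Pctp*-/- mice lack the phosphatidylcholine transfer protein PC-TP in every tissue and not in hepatocytes alone, and the MCD diet brings about steatosis and liver damage. The comparisons asked what the knockout did to these genes on each diet, what the diet did in each genotype, and whether the diet effects differed between genotypes. The age of the mice and the time on the diet are not given for these libraries in the sources used here.

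Secretory proteins enter the ER through the Sec61 translocon and are folded there by chaperones and disulfide isomerases, and those that do not fold are handed back to the cytosol for degradation. When unfolded proteins build up, the sensors IRE1 (encoded by *Ern1*), ATF6 and PERK are activated, IRE1 splices the mRNA of *Xbp1*, and XBP1, ATF6 and ATF4 raise the transcription of chaperone, ERAD and stress genes. The hepatocyte secretes most plasma proteins and so depends heavily on this machinery, and the related factor CREBH (*Creb3l3*) is largely a liver and gut protein that also acts on lipid metabolism.

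The sites through which the response acts on transcription were looked for in the promoters, because most of the listed genes are known as its targets. The ER stress response element (ERSE, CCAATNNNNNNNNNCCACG), the shorter ERSE-II (ATTGGNCCACG) and the core of the unfolded protein response element (TGACGTGG) were searched on both strands of windows from 250 bases before to 50 bases after the transcription start (RefSeq, GRCm38.p6). Windows were given for 28 of the 34 members, and those of *Atf6*, *Derl1*, *Hyou1*, *Manf*, *Sec61a1* and *Ssr2* were not analysed here. An ERSE was found for 9 of the 28 members and for 0.137% of all 27025 genes with a window, ERSE-II for 2 members and 0.0444% of all genes, and the third motif for 0 members and 0.714% of all genes. No matches of the first and second motif overlapped in a member, although the letters CCACG belong to both. A match describes the letters and does not show that a factor binds. The matches are printed in the orientation of the motif, with the searched letters in capitals and the free letters in lower case. What the free letters share was not measured.
Calr ERSE at chr8:84847075-84847093: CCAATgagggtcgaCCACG
Canx ERSE at chr11:50325800-50325818: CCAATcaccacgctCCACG
Creld2 ERSE at chr15:88819520-88819538: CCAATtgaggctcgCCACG
Derl3 ERSE at chr10:75893242-75893260: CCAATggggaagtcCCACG
Dnajc3 ERSE at chr14:118937827-118937845: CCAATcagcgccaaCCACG
Hsp90b1 ERSE at chr10:86705533-86705551: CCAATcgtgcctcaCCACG
Hsp90b1 ERSE at chr10:86705638-86705656: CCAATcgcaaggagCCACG
Hspa5 ERSE at chr2:34772025-34772043: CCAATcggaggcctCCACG
Pdia6 ERSE at chr12:17266491-17266509: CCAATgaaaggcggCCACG
Syvn1 ERSE at chr19:6046532-6046550: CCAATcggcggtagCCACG
Dnajb11 ERSE-II at chr16:22857852-22857862: ATTGGcCCACG
Herpud1 ERSE-II at chr8:94386377-94386387: ATTGGgCCACG

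The upstream windows of *Hspa5*, *Herpud1* and *Ssr3* are printed as examples of an ERSE, an ERSE-II and neither, since *Herpud1* and *Ssr3* were among the members that differed most between the diets, in opposite directions, and *Hspa5* is the usual marker of the response. Each is read 5′ to 3′ along the gene's strand and ends at the base before the start, with a motif, where there is one, in capitals.
Hspa5 upstream of the start, chr2:34771840-34772089, plus strand: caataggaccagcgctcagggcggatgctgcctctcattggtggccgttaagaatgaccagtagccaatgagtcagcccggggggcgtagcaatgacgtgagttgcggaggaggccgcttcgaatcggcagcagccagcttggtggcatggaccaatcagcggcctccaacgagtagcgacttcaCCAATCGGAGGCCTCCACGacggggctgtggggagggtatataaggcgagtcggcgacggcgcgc
Herpud1 upstream of the start, chr8:94386179-94386428, plus strand: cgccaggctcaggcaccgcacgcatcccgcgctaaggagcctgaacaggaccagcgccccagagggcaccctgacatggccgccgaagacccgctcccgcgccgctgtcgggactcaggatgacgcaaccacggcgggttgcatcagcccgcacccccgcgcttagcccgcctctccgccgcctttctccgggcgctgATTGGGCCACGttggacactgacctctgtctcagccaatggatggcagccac
Ssr3 upstream of the start, chr3:65392554-65392803, minus strand: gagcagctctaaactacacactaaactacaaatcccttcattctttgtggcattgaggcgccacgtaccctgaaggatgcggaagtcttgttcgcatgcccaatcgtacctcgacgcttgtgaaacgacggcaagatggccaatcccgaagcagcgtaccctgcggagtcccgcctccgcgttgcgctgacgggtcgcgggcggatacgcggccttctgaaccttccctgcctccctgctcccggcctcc

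Between 30486576 and 55179468 reads per library mapped uniquely for the chow mice, and between 33463498 and 46246856 for the MCD mice. Of all reads, 77.6% to 79.4% mapped uniquely in the chow libraries and 85.7% to 87.5% in the MCD libraries, so each diet formed its own set of libraries, and an effect of the diet and one of the sequencing cannot be told apart. *Pctp* itself, the targeted gene, was at 1.21 to 2.65 FPKM in WT and 0.330 to 0.566 FPKM in *Pctp*-/- mice on chow, and at 3.61 to 7.90 and 0.156 to 0.329 FPKM on MCD, without overlap (limma, adjusted p = 0.15 and 0.000624). All 6 hepatocyte markers were detected, and they summed to between 32622 and 37414 FPKM per chow library and between 47544 and 68829 FPKM per MCD library. Among the chow libraries, those of *Pctp*-/- mice 1 and 3 stood apart for the members, at opposite ends. Mouse 1 held the lowest of the 6 chow values for 18 of 34 members, against 28.4% of all tested genes. Mouse 3 held the highest for 18 of 34 members, against 23.2% of all tested genes. In the library of mouse 1, 38.7% of reads mapped without a splice, against 42.1% to 43.5% in the other chow libraries. The part of this in the result was not tested. Results that mouse 1 moved most are given with and without it. In whole liver, fewer cells of a type and less RNA per cell cannot be told apart.

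With the MCD diet *Sec61b*, *Ssr1*, *Ssr2* and *Ssr3* of the translocon rose and *Herpud1*, *Syvn1*, *Edem1* and *Sdf2l1* fell in both genotypes, while *Hspa5* and *Hsp90b1* did not pass the test in either. Groups did not overlap for 20 members in WT mice (63.7% of all tested genes) and 17 in *Pctp*-/- mice (59.7%). Members were called changed at a Benjamini-Hochberg adjusted p under 0.05 in limma, fitted across all tested genes on log2(FPKM + 1). In WT mice 18 of 34 members were called, beside 57% of all tested genes, with 12 higher (34.5% of all tested genes) and 6 lower (22.5%). With median-of-ratios scaling, which moved the median of all genes from 0.11 to 0.01 on the log2 scale, 10 were higher and 10 lower, and with quantile normalization 11 and 9. In *Pctp*-/- mice 15 of 34 were called, beside 50.3% of all tested genes, with 10 higher (26%) and 5 lower (24.4%). The median log2 fold change of the members was 0.24 in WT mice, beside 0.11 over all tested genes, and 0.18 in *Pctp*-/- mice, beside 0.04. The latter was 0.010 without *Pctp*-/- chow mouse 1, beside 0.012. Without that mouse the share of called members was 67.6% in WT mice, beside 60.1% of all tested genes, and 55.9% in *Pctp*-/- mice, beside 50.6%. With all libraries and the deposited scaling both shares lay near or under the background. There the members as a group were called no more often than other genes. In both genotypes 14 members were called, all in the same direction, beside 40.8% of all tested genes called in both in the same direction. Of these, 9 rose (*Manf*, *Calr*, *P4hb*, *Atf6*, *Derl1*, *Sec61b*, *Ssr1*, *Ssr2* and *Ssr3*) and 5 fell (*Sdf2l1*, *Pdia6*, *Herpud1*, *Syvn1* and *Edem1*).

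**Figure D1:**
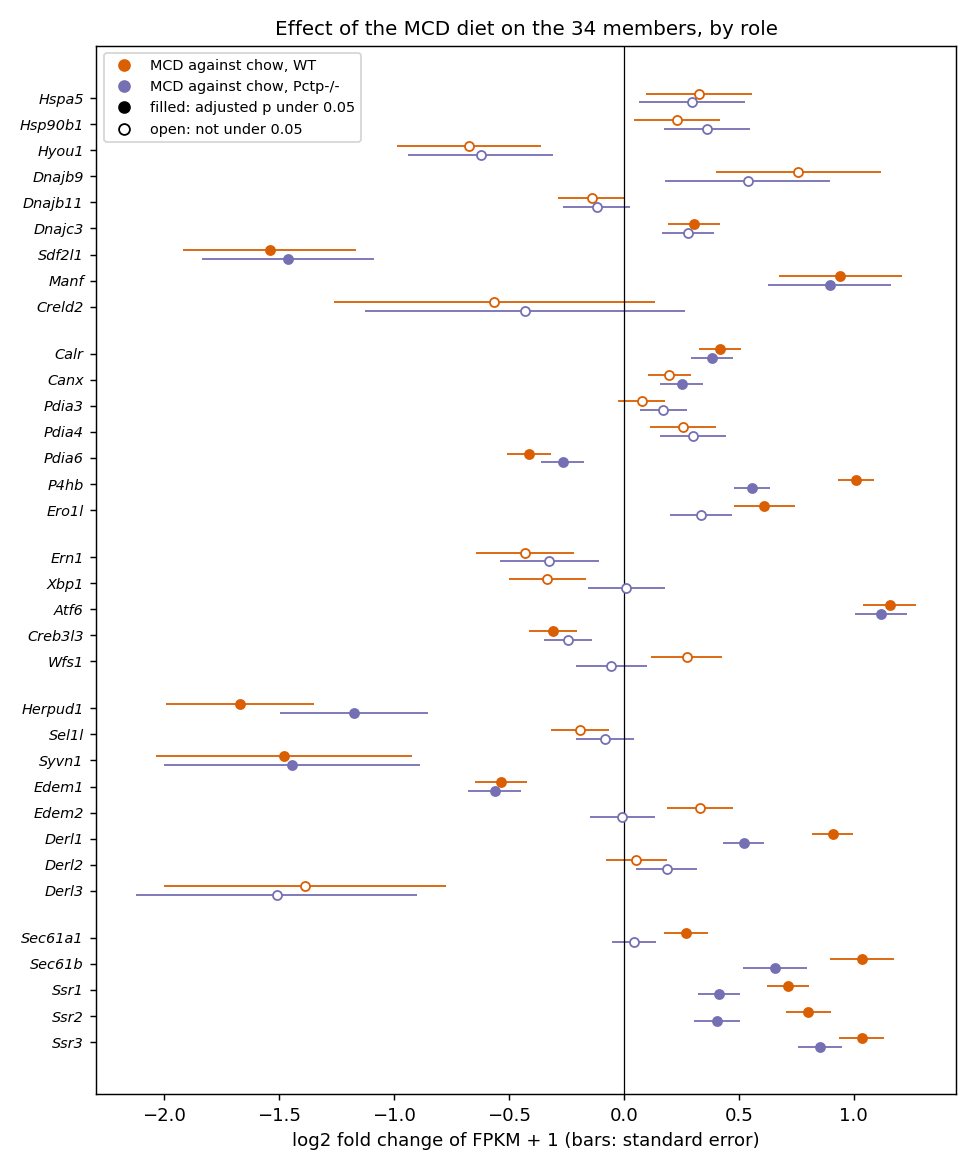
Log2 fold change of FPKM + 1 (x axis) between the MCD diet and chow for the 34 members (y axis, grouped by role), in WT (orange) and *Pctp*-/- mice (purple), with the SE as bars. Filled points passed an adjusted p under 0.05: 18 in WT and 15 in *Pctp*-/- mice, among them 5 and 4 of the 5 translocon genes, all to the right of 0.

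All 5 translocon genes rose in WT mice and 4 of the 5 in *Pctp*-/- mice. *Sec61b* encodes the beta subunit of the Sec61 channel, through which nascent secretory proteins enter the ER. *Sec61b* was at 64.1, 84.2 and 75.9 FPKM in WT and 71.6, 73.8 and 93.8 FPKM in *Pctp*-/- mice on chow, against 160.3, 153 and 146 FPKM in WT and 143, 106 and 131 FPKM in *Pctp*-/- mice on MCD. Every MCD value lay above every chow value. The log2 fold change was 1.03 (standard error, SE, 0.14, adjusted p = 6.42e-05, limma) in WT and 0.66 (SE 0.14, adjusted p = 0.00197) in *Pctp*-/- mice. *Ssr3* encodes the gamma subunit of the translocon-associated protein (TRAP) complex, which sits beside the channel and helps some signal sequences to open it. *Ssr3* was at 65.5, 57.4 and 57.2 FPKM in WT and 62.9, 59.8 and 68.4 FPKM in *Pctp*-/- mice on chow, against 132, 118 and 122 FPKM in WT and 119, 104 and 124 FPKM in *Pctp*-/- mice on MCD. The diets did not overlap here either, with log2 fold changes of 1.03 (SE 0.10, adjusted p = 3.95e-06) in WT and 0.85 (SE 0.10, adjusted p = 2.32e-05) in *Pctp*-/- mice. The other TRAP subunits on the list, *Ssr1* and *Ssr2*, rose by 0.71 and 0.80 in WT and by 0.41 and 0.40 in *Pctp*-/- mice on the log2 scale. *Sec61a1*, the pore-forming subunit, rose by 0.27 in WT mice (adjusted p = 0.03) and was at 0.05 in *Pctp*-/- mice (adjusted p = 0.72). The *Sec61a1* call was lost without WT chow mouse 2 (0.27) or 3 (0.22) or WT MCD mouse 1 (0.25) or 2 (0.25), and with median-of-ratios scaling (0.14).

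**Figure D2:**
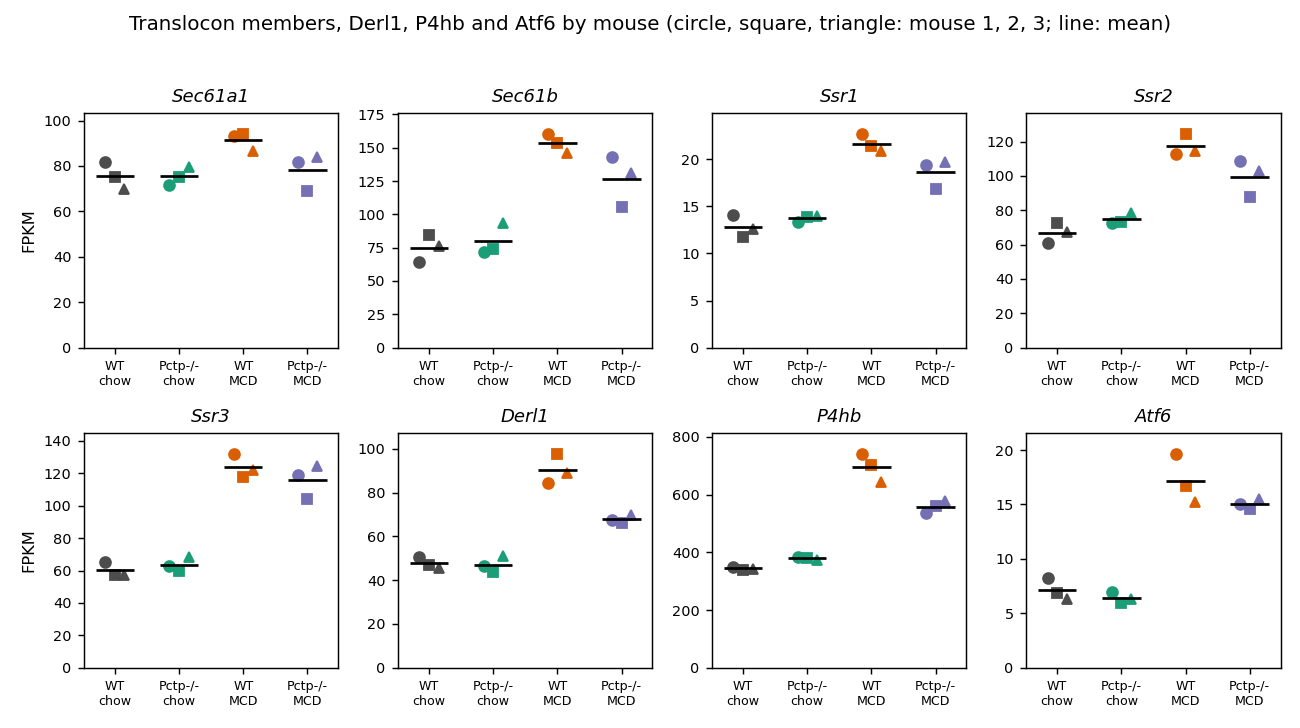
FPKM (y axis, from 0) of the 5 translocon genes and of *Derl1*, *P4hb* and *Atf6* in each of the 12 livers (x axis, 4 groups of 3 mice), with 1 point per mouse and a line at the group mean. In all panels except *Sec61a1* the 6 MCD mice lie above the 6 chow mice. In all panels except *Ssr3* and *Atf6* the WT mice on MCD lie above the *Pctp*-/- mice on MCD, by the widest margins for *Derl1* and *P4hb*.

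Among lectin chaperones and enzymes of oxidative folding, 3 rose and 1 fell of 7 in each genotype, or 6 and 0 in *Pctp*-/- mice with quantile normalization. *P4hb* encodes the protein disulfide isomerase PDI, which is also the beta subunit of prolyl 4-hydroxylase and a partner of the microsomal triglyceride transfer protein. *P4hb* was at 349.9, 339 and 343 FPKM in WT and 384, 381 and 374 FPKM in *Pctp*-/- mice on chow, against 739, 702 and 643 FPKM in WT and 538, 559.9 and 576 FPKM in *Pctp*-/- mice on MCD. It was the most abundant member on average over the 12 libraries, and its diets did not overlap. The log2 fold change was 1.01 (SE 0.08, adjusted p = 1.04e-06) in WT and 0.56 (SE 0.08, adjusted p = 0.000121) in *Pctp*-/- mice. *Calr*, which encodes the lectin chaperone calreticulin, rose by 0.42 and 0.38 on the log2 scale in WT and *Pctp*-/- mice. *Canx*, for its membrane-bound relative calnexin, was at 0.20 in WT (adjusted p = 0.0911, or 0.0161 at 0.28 without WT chow mouse 1) and rose by 0.25 in *Pctp*-/- mice (adjusted p = 0.0413). The *Canx* call was a weak one, kept in 11 of 24 alternatives, with values of 0.19 to 0.28 without any 1 of the 8 libraries whose omission ended it (WT chow mouse 3, *Pctp*-/- chow mouse 2 or 3, WT MCD mouse 2 or 3, or *Pctp*-/- MCD mouse 1, 2 or 3). *Ero1l*, the oxidase that recharges PDI, rose by 0.61 in WT (adjusted p = 0.00205, or 0.119 at 0.28 with the correction for GC content and length) and was at 0.34 in *Pctp*-/- mice (adjusted p = 0.0537), which passed without WT chow mouse 1 or 2 or WT MCD mouse 1 (0.34 each, adjusted p = 0.0314, 0.0327 and 0.0482). *Pdia6*, another disulfide isomerase, went the other way. *Pdia6* was at 166, 171 and 174 FPKM in WT and 159, 177 and 187 FPKM in *Pctp*-/- mice on chow, against 140.4, 116 and 128 FPKM in WT and 143, 137 and 154 FPKM in *Pctp*-/- mice on MCD. All MCD values lay under all chow values, and *Pdia6* fell by 0.41 in WT (adjusted p = 0.00264) and by 0.27 in *Pctp*-/- mice (adjusted p = 0.0326) on the log2 scale. The call in *Pctp*-/- mice was lost without *Pctp*-/- chow mouse 2 (-0.25) or 3 (-0.21) or *Pctp*-/- MCD mouse 1 (-0.26) or 2 (-0.23), and with quantile normalization (-0.17, adjusted p = 0.147). *Pdia3* and *Pdia4* did not pass in either genotype, with log2 fold changes of 0.08 to 0.30, although *Pdia4* passed in *Pctp*-/- mice without *Pctp*-/- chow mouse 3 (0.42, adjusted p = 0.0346). With quantile normalization both passed in *Pctp*-/- mice, *Pdia3* at 0.30 (adjusted p = 0.0287) and *Pdia4* at 0.38 (adjusted p = 0.038).

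Of the 8 ERAD members, 1 rose and 3 fell in each genotype. *Herpud1* encodes a membrane protein that brings ubiquitin ligase components together at the ER. *Herpud1* was at 337, 389 and 431 FPKM in WT and 225, 472 and 537 FPKM in *Pctp*-/- mice on chow, against 80.4, 131 and 163 FPKM in WT and 126, 214 and 183 FPKM in *Pctp*-/- mice on MCD. The highest MCD value, 214 FPKM, lay just under the lowest chow value, 225 FPKM, which was that of *Pctp*-/- chow mouse 1. *Herpud1* fell by 1.67 (SE 0.32, adjusted p = 0.000879) in WT and by 1.17 (SE 0.32, adjusted p = 0.00942) in *Pctp*-/- mice on the log2 scale, the largest fall of any member in WT mice. *Syvn1* encodes HRD1, the ubiquitin ligase at the centre of this pathway. *Syvn1* was at 91.1, 57.6 and 35.5 FPKM in WT and 17.9, 112 and 107 FPKM in *Pctp*-/- mice on chow, against 14.3, 22.2 and 24.6 FPKM in WT and 21.1, 19.9 and 23.9 FPKM in *Pctp*-/- mice on MCD. The diets did not overlap in WT mice, but *Pctp*-/- chow mouse 1 lay under all *Pctp*-/- MCD mice. *Syvn1* fell by 1.48 (SE 0.56, adjusted p = 0.0383) in WT and by 1.44 (SE 0.56, adjusted p = 0.0472) in *Pctp*-/- mice.

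Both *Syvn1* calls were close to the threshold, kept in 16 and 10 of 24 alternatives. In WT mice the *Syvn1* call was lost without WT chow mouse 1 (-1.15) or 2 (-1.47) or WT MCD mouse 1 (-1.26), 2 (-1.55) or 3 (-1.63). In *Pctp*-/- mice it was lost without *Pctp*-/- chow mouse 2 (-1.003) or 3 (-1.04), *Pctp*-/- MCD mouse 1 (-1.43), 2 (-1.39) or 3 (-1.52), or, at an unmoved -1.44, WT chow mouse 2 or any of the WT MCD mice. Without *Pctp*-/- chow mouse 1 it was -2.30 (adjusted p = 0.00013).

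*Edem1* encodes a lectin-like protein that takes misfolded glycoproteins out of the folding cycle. *Edem1* was at 45.6, 34.4 and 33.4 FPKM in WT and 34.4, 41.1 and 37.9 FPKM in *Pctp*-/- mice on chow, against 24.8, 25.9 and 25.8 FPKM in WT and 26.1, 24.8 and 24.7 FPKM in *Pctp*-/- mice on MCD. Chow and MCD mice did not overlap, and the 6 MCD mice lay close together. *Edem1* fell by 0.53 (adjusted p = 0.00173) in WT and by 0.56 (adjusted p = 0.00148) in *Pctp*-/- mice on the log2 scale. *Derl1*, one of the derlins that form the channel back to the cytosol, was the ERAD member that rose, by 0.91 (SE 0.09, adjusted p = 5.27e-06) in WT and by 0.52 (SE 0.09, adjusted p = 0.00042) in *Pctp*-/- mice. The other derlins did not pass: *Derl2* was at 0.05 and 0.19, and *Derl3* at -1.39 (adjusted p = 0.0712) and -1.51 (adjusted p = 0.057) in WT and *Pctp*-/- mice. *Derl3* passed in both genotypes without *Pctp*-/- chow mouse 1, at -1.39 (adjusted p = 0.00551) and -2.40 (adjusted p = 0.000473), and without WT chow mouse 3, at -1.84 (adjusted p = 0.0332) and -1.51 (adjusted p = 0.0489). It also passed in a fit of the WT mice alone (-1.39, adjusted p = 0.0159). In *Pctp*-/- mice it passed with median-of-ratios scaling (-1.535, adjusted p = 0.0499) and quantile normalization (-1.53, adjusted p = 0.0481). *Sel1l*, the partner of HRD1, was at -0.19 and -0.08, and *Edem2* at 0.33 and -0.01, without a call. *Sel1l* passed in WT mice with median-of-ratios scaling (-0.32, adjusted p = 0.0259) and quantile normalization (-0.29, adjusted p = 0.0404). *Edem2* passed in WT mice without WT MCD mouse 3 (0.48, adjusted p = 0.0116), and *Derl2* in *Pctp*-/- mice without *Pctp*-/- chow mouse 3 (0.33, adjusted p = 0.0403).

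Of the 9 chaperones and co-chaperones, 2 rose and 1 fell in WT mice, and 1 rose and 1 fell in *Pctp*-/- mice. With median-of-ratios scaling or quantile normalization 1 rose and 2 fell in WT mice, and without *Pctp*-/- chow mouse 1 the counts were 3 and 2 in WT and 1 and 4 in *Pctp*-/- mice. *Hspa5* encodes BiP, the main ER chaperone of the HSP70 family, which also holds the sensors inactive. *Hspa5* was at 483, 352 and 313 FPKM in WT and 252, 483 and 507 FPKM in *Pctp*-/- mice on chow, against 449, 457 and 514 FPKM in WT and 516, 453 and 489 FPKM in *Pctp*-/- mice on MCD. The MCD values lay within or close to the wide chow range, and the log2 fold change was 0.33 (SE 0.23, adjusted p = 0.243) in WT and 0.30 (SE 0.23, adjusted p = 0.305) in *Pctp*-/- mice, or -0.03 in the latter without *Pctp*-/- chow mouse 1. *Hsp90b1* encodes GRP94, the HSP90 of the ER. *Hsp90b1* was at 178, 132 and 112 FPKM in WT and 113, 172 and 181 FPKM in *Pctp*-/- mice on chow, against 155, 156 and 176 FPKM in WT and 181, 192 and 215 FPKM in *Pctp*-/- mice on MCD. It too overlapped between the diets in WT mice, with 0.23 (adjusted p = 0.312) in WT and 0.36 (adjusted p = 0.126) in *Pctp*-/- mice.

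*Sdf2l1* encodes a co-factor of BiP and its J-domain partners. *Sdf2l1* was at 67.4, 43.6 and 34.8 FPKM in WT and 24.7, 80.0 and 83.0 FPKM in *Pctp*-/- mice on chow, against 13.0, 14.9 and 18.9 FPKM in WT and 18.0, 20.002 and 19.96 FPKM in *Pctp*-/- mice on MCD. Every chow value was above every MCD value, and *Sdf2l1* fell by 1.54 (SE 0.38, adjusted p = 0.00401) in WT and by 1.46 (SE 0.38, adjusted p = 0.00651) in *Pctp*-/- mice on the log2 scale, a call kept in 24 of 24 alternatives in each. *Manf*, a secreted protein that is held in the ER by BiP, rose instead. *Manf* was at 68.8, 60.1 and 56.9 FPKM in WT and 32.9, 72.8 and 87.5 FPKM in *Pctp*-/- mice on chow, against 108, 123 and 128 FPKM in WT and 115, 97.5 and 124 FPKM in *Pctp*-/- mice on MCD. The groups did not overlap, and *Manf* rose by 0.94 (SE 0.27, adjusted p = 0.00951) in WT and by 0.89 (SE 0.27, adjusted p = 0.0145) in *Pctp*-/- mice. Without *Pctp*-/- chow mouse 1 the latter was 0.48 (adjusted p = 0.011), and without *Pctp*-/- MCD mouse 3 it was 0.82 (adjusted p = 0.0504).

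Of the J-domain proteins, *Dnajc3*, which encodes p58IPK, an inhibitor of PERK, rose by 0.30 in WT mice (adjusted p = 0.0354) and was at 0.28 in *Pctp*-/- mice (adjusted p = 0.056). The *Dnajc3* call in WT mice was lost without WT chow mouse 2 (0.27) or 3 (0.22) or WT MCD mouse 1 (0.33), 2 (0.33) or 3 (0.26), with median-of-ratios scaling (0.17), quantile normalization (0.23) or TPM (0.21), and in a fit of the comparison alone (0.30, adjusted p = 0.0685). That in *Pctp*-/- mice was gained without WT chow mouse 1 (0.28, adjusted p = 0.0186) or 3 (0.28, adjusted p = 0.0475) or *Pctp*-/- chow mouse 3 (0.36, adjusted p = 0.0299). *Dnajb9* and *Dnajb11*, which deliver unfolded proteins to BiP, did not pass, at 0.76 and 0.54 for *Dnajb9* and -0.14 and -0.12 for *Dnajb11* in WT and *Pctp*-/- mice. Without *Pctp*-/- chow mouse 1, *Dnajb9* passed in WT mice (0.76, adjusted p = 0.00655) and *Dnajb11* in *Pctp*-/- mice (-0.32, adjusted p = 0.023). *Hyou1*, the nucleotide exchange factor GRP170, was at -0.67 (adjusted p = 0.0856) and -0.62 (adjusted p = 0.117). Without that same mouse it passed in both genotypes, at -0.67 (adjusted p = 0.00431) and -1.10 (adjusted p = 0.000545). In WT mice *Hyou1* also passed with median-of-ratios scaling (-0.81, adjusted p = 0.0354). A fit of the WT mice alone called *Hyou1* (-0.67, adjusted p = 0.0178) and *Dnajb9* (0.76, adjusted p = 0.0191) too.

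Of the 5 sensors and factors, *Atf6* rose in both genotypes and *Creb3l3* fell in WT mice, where 1 rose and 3 fell with median-of-ratios scaling and 1 and 2 with quantile normalization. *Atf6* was at 8.29, 6.87 and 6.31 FPKM in WT and 6.93, 5.94 and 6.33 FPKM in *Pctp*-/- mice on chow, against 19.6, 16.7 and 15.2 FPKM in WT and 15.0, 14.6 and 15.5 FPKM in *Pctp*-/- mice on MCD. Its diets lay far apart, and the log2 fold changes of 1.16 (SE 0.12, adjusted p = 6.64e-06) in WT and 1.12 (SE 0.12, adjusted p = 1.15e-05) in *Pctp*-/- mice were the largest rises among the members. *Creb3l3* was at 186, 207 and 227 FPKM in WT and 169.8, 194 and 185 FPKM in *Pctp*-/- mice on chow, against 158, 171 and 169.9 FPKM in WT and 145, 175 and 145 FPKM in *Pctp*-/- mice on MCD. The WT groups did not overlap, whereas *Pctp*-/- chow mouse 1 lay under *Pctp*-/- MCD mouse 2. *Creb3l3* fell by 0.31 in WT (adjusted p = 0.0227) on the log2 scale and was at -0.24 in *Pctp*-/- mice (adjusted p = 0.0712). The call in WT mice was lost without WT chow mouse 2 (-0.31) or 3 (-0.24) or WT MCD mouse 1 (-0.27), and *Creb3l3* passed in *Pctp*-/- mice without *Pctp*-/- MCD mouse 2 (-0.33, adjusted p = 0.0245).

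*Xbp1* was measured as 1 value per gene, which does not separate the spliced from the unspliced mRNA. *Xbp1* was at 125, 111 and 85.0 FPKM in WT and 58.3, 93.3 and 88.1 FPKM in *Pctp*-/- mice on chow, against 84.7, 80.8 and 85.6 FPKM in WT and 79.0, 76.9 and 80.7 FPKM in *Pctp*-/- mice on MCD. The 6 MCD mice were within 76.9 to 85.6 FPKM, whereas the chow mice ranged from 58.3 to 125 FPKM. The log2 fold change with the diet was -0.33 in WT (adjusted p = 0.108) and 0.01 in *Pctp*-/- mice (adjusted p = 0.965). In WT mice *Xbp1* passed without WT chow mouse 3 (-0.49, adjusted p = 0.0283) or *Pctp*-/- chow mouse 1 (-0.33, adjusted p = 0.0307), and with median-of-ratios scaling (-0.47, adjusted p = 0.0193). *Ern1* was at -0.43 and -0.32 and *Wfs1*, an ER membrane protein that restrains ATF6, at 0.27 and -0.06 in WT and *Pctp*-/- mice, without a call. *Ern1* passed in WT mice without WT chow mouse 3 (-0.71, adjusted p = 0.00394), with median-of-ratios scaling (-0.56, adjusted p = 0.0303) and with quantile normalization (-0.52, adjusted p = 0.0443), and *Wfs1* without *Pctp*-/- chow mouse 1 (0.27, adjusted p = 0.0466).

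The presence of a motif in the promoter window was set beside these changes. Of the 11 members with an ERSE or ERSE-II, 2 rose and 3 fell in WT mice, and 2 rose and 3 fell in *Pctp*-/- mice. Of the 17 members with a window that held neither, 5 rose and 3 fell in WT mice, and 4 rose and 2 fell in *Pctp*-/- mice. The median log2 fold change was -0.14 and -0.12 in WT and *Pctp*-/- mice with a motif and 0.26 and 0.17 without. For the 9 members with an ERSE alone it was above 0, at 0.20 and 0.25, with 2 higher and 2 lower in each genotype. These counts are a description, and the difference between them was not tested.

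Between mice of a group, 26 of the 34 members varied more on chow than on MCD, beside 62.5% of all tested genes, and 8 did not. *Creld2*, *Derl3*, *Hyou1* and *Dnajb9* are described here by library because of their spread, and were chosen after their values were seen. *Creld2* encodes a disulfide isomerase-like protein that the response strongly induces. *Creld2* was at 113, 78.9 and 43.6 FPKM in WT and 17.0, 178 and 179 FPKM in *Pctp*-/- mice on chow, against 34.01, 52.1 and 66.6 FPKM in WT and 62.9, 56.4 and 63.6 FPKM in *Pctp*-/- mice on MCD. The highest and the lowest of the 6 chow values were both from *Pctp*-/- mice and 10.6-fold apart, while the MCD values spanned 1.96-fold. The other 5 chow values, with *Pctp*-/- chow mouse 1 left out, were 4.11-fold apart. *Derl3*, a derlin found mainly in secretory cells, was at 9.13, 8.72 and 2.85 FPKM in WT and 1.79, 14.8 and 18.6 FPKM in *Pctp*-/- mice on chow, against 1.02, 1.71 and 2.87 FPKM in WT and 1.91, 1.85 and 3.49 FPKM in *Pctp*-/- mice on MCD. It spanned 10.4-fold on chow and 3.41-fold on MCD, and *Syvn1* 6.28-fold and 1.72-fold. Without that mouse the chow span was 6.53-fold for *Derl3* and 3.17-fold for *Syvn1*. *Hyou1* was at 98.6, 71.4 and 59.1 FPKM in WT and 37.5, 104 and 99.6 FPKM in *Pctp*-/- mice on chow, against 39.3, 47.1 and 54.0 FPKM in WT and 48.2, 44.0 and 49.2 FPKM in *Pctp*-/- mice on MCD. *Dnajb9* was at 70.0, 46.2 and 39.8 FPKM in WT and 25.6, 78.4 and 78.8 FPKM in *Pctp*-/- mice on chow, against 68.4, 92.6 and 101 FPKM in WT and 93.8, 72.6 and 73.0 FPKM in *Pctp*-/- mice on MCD. In each of these genes *Pctp*-/- chow mouse 1 was the lowest of the chow mice and *Pctp*-/- chow mice 2 and 3 the highest, with the WT mice between.

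**Figure D3:**
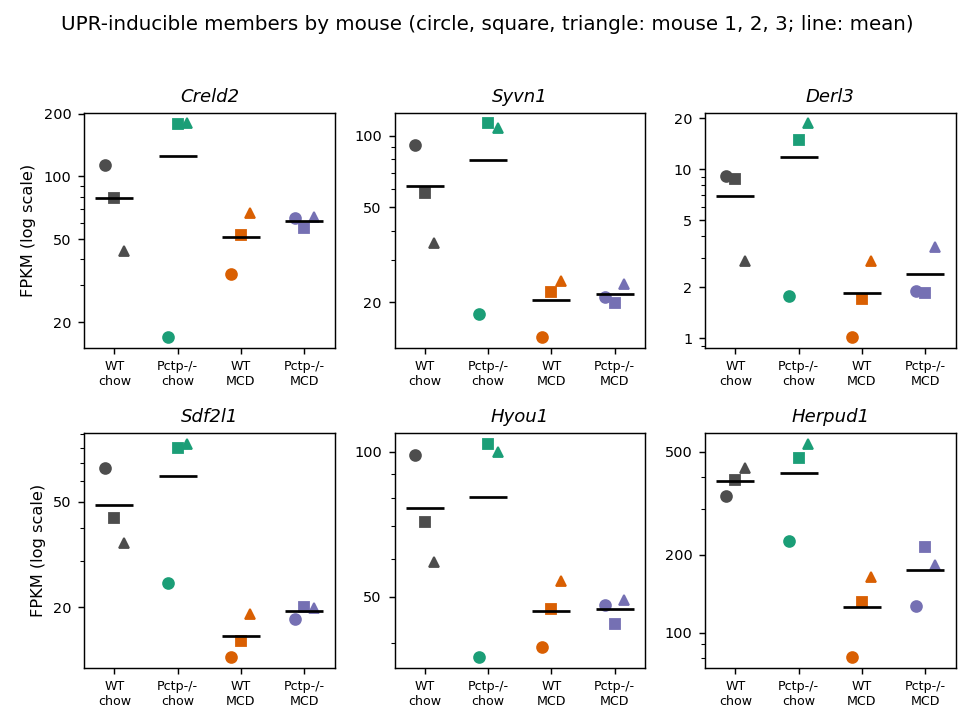
FPKM (y axis, log scale) of *Creld2*, *Syvn1*, *Derl3*, *Sdf2l1*, *Hyou1* and *Herpud1* in each of the 12 livers (x axis, 4 groups of 3 mice), with 1 point per mouse and a line at the group mean. In every panel *Pctp*-/- chow mouse 1 (green circle) is the lowest of the 6 chow mice and *Pctp*-/- chow mice 2 and 3 the highest, for *Creld2* at 17.0 against 178 and 179 FPKM.

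The spread was summarised as the standard deviation of log2(FPKM + 1) within groups. The median was 0.20 on chow and 0.12 on MCD for the members, beside 0.17 and 0.14 over all tested genes. All 9 chaperones and co-chaperones were more spread on chow, with a median of 0.53 against 0.15, and so were all 5 sensors and factors, with 0.25 against 0.12. The translocon genes were not, with 0.10 on chow and 0.12 on MCD and 1 of 5 more spread on chow. With *Pctp*-/- chow mouse 1 left out, 24 of 34 members were more spread on chow, beside 52.6% of all tested genes, and the median on chow was 0.16 for the members, 0.28 for the chaperones, 0.15 for the sensors and 0.11 for the translocon genes. All 9 chaperones, 3 of the 5 sensors and 3 of the 5 translocon genes were then more spread on chow. In WT mice alone, 27 of 34 were, beside 53.1% of all tested genes, among them the 9 chaperones, at 0.34 against 0.13, and the 5 translocon genes, at 0.12 against 0.07. *P4hb* had the smallest spread on chow of any member, at 0.02.

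**Figure D4:**
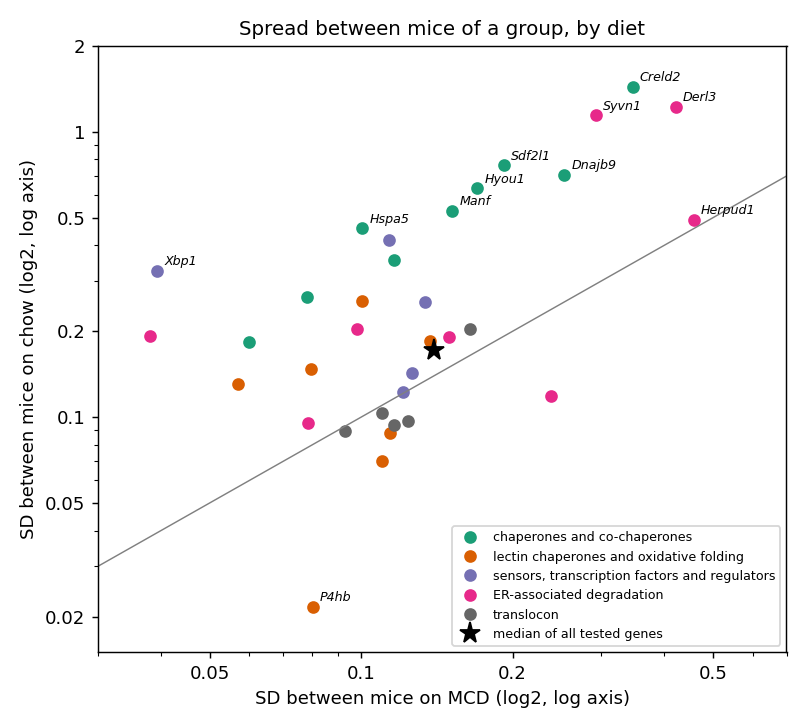
Standard deviation of log2(FPKM + 1) between the mice of a group, on MCD (x axis) and on chow (y axis), both on log axes, for the 34 members coloured by role, with a star at the median of all tested genes and a line where the values are equal. *Creld2*, *Derl3* and *Syvn1* lie at the top, above 1 on chow, and the translocon genes lie near the line.

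The order of the chow mice was shared between members. *Pctp*-/- chow mouse 1 lay under and *Pctp*-/- chow mice 2 and 3 over all WT chow mice for 11 of 34 members (*Hyou1*, *Dnajb9*, *Dnajb11*, *Sdf2l1*, *Manf*, *Creld2*, *Pdia6*, *Wfs1*, *Herpud1*, *Syvn1* and *Derl3*), beside 5.98% of all tested genes. In 9 of these, all but *Pdia6* and *Herpud1*, the WT mice also had the same order, with mouse 3 lowest and mouse 1 highest, beside 1.71% of all tested genes. The patterns were set after the values were seen, and the genes share their libraries, so the counts describe these 6 livers. The mean of *Pctp*-/- chow mice 2 and 3 was 10.5 times the value of mouse 1 for *Creld2*, 9.36 times for *Derl3*, 6.14 times for *Syvn1*, 3.30 times for *Sdf2l1*, 3.07 times for *Dnajb9*, 2.71 times for *Hyou1* and 1.96 times for *Hspa5*. Other members hardly differed between these mice, with ratios of 0.983 for *P4hb*, 1.02 for *Ssr3* and 1.05 for *Calr*. Plasma cells also express many of these genes at a high level. The summed level of 7 plasma and B cell markers was 17.6 to 24.02 FPKM over the 6 chow livers and 17.9 to 33.2 FPKM over the 6 MCD livers, with *Jchain* at 0.712 to 1.82 FPKM and *Mzb1* at 0.235 to 0.926 FPKM. Among *Pctp*-/- chow livers, macrophage markers summed to 38.1 to 95.3 FPKM and neutrophil and T cell markers to 0.523 to 4.82 FPKM. Cholangiocyte markers summed to 10.6 to 19.5 FPKM there, endothelial markers to 37.5 to 53.8 FPKM and stellate cell and fibroblast markers to 12.7 to 16.7 FPKM. The part of cell content in the order of the mice was not tested.

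Without *Pctp*-/- chow mouse 1, 23 members were called with the diet in WT (67.6%, beside 60.1% of all tested genes) and 19 in *Pctp*-/- mice (55.9%, beside 50.6%). That mouse was singled out because members were low in it, so leaving it out narrows their spread, which by itself favours calls. It is not a WT mouse, so fold changes in WT mice stayed the same, and calls there changed through the shared estimate of the spread. With all libraries *Creld2* was at -0.56 in WT (limma, adjusted p = 0.511) and -0.43 in *Pctp*-/- mice (adjusted p = 0.631). Without mouse 1 it was at -0.56 (adjusted p = 0.122) and -1.54 (adjusted p = 0.00261). In the opposite case, without *Pctp*-/- chow mouse 2 or 3, the diet effect on *Creld2* in *Pctp*-/- mice was 0.12 for each. *Sdf2l1* and *Herpud1* fell in *Pctp*-/- mice with or without mouse 1, by 1.46 and 1.17 with it and by 2.02 and 1.56 without it on the log2 scale. The rises of *Ssr3* (0.85 and 0.84), *P4hb* (0.56 and 0.56) and *Atf6* (1.12 and 1.17) in *Pctp*-/- mice hardly depended on it. Over all 24 alternatives they ranged from 0.36 to 0.93 for *Ssr3*, 0.49 to 0.66 for *P4hb* and 0.92 to 1.22 for *Atf6*. The number of called members was lowest without WT chow mouse 2 for the diet in WT mice (14) and without *Pctp*-/- chow mouse 2 for the diet in *Pctp*-/- mice (12).

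With the knockout 0 of 34 members were called on chow, beside 0.136% of all tested genes, and 0 of 34 on MCD, beside 0.818%, by limma's adjusted p. On chow this test did not call *Pctp* itself either (adjusted p = 0.15), although its groups did not overlap. The lack of calls on chow thus does not show that no member changed. At an unadjusted p under 0.05 there was 1 member on chow (*Xbp1*), beside 6.98% of all tested genes, and 5 on MCD, beside 16.3%. The groups did not overlap for 2 members on chow, beside 10.6% of all tested genes, and for 9 on MCD, beside 26.6%. The median log2 fold change of the members was 0.03 on chow, beside 0.01 over all tested genes, and -0.02 on MCD, beside -0.09. The median on chow was 0.13 without *Pctp*-/- chow mouse 1, beside 0.03, with *Creld2* at 1.28 (adjusted p = 0.22), *Derl3* at 1.28 (0.288), *Syvn1* at 0.93 (0.328) and *Sdf2l1* at 0.79 (0.245), none of the 34 called. With all libraries these were at 0.17, 0.40, 0.08 and 0.23. On chow, *Xbp1* was at -0.43 (SE 0.17, adjusted p = 0.601), and at -0.22 without *Pctp*-/- chow mouse 1. On MCD the nearest to a call was *Derl1*, at 84.4, 97.5 and 89.2 FPKM in WT and 67.7, 66.1 and 69.9 FPKM in *Pctp*-/- mice. These values did not overlap, and the log2 fold change was -0.40 (SE 0.09, adjusted p = 0.0576), which passed only when genes under a mean of 5 FPKM were left out (adjusted p = 0.0416). *P4hb* on MCD, at 643 to 739 FPKM in WT and 538 to 576 FPKM in *Pctp*-/- mice, was at -0.31 (SE 0.08, adjusted p = 0.0895). *Herpud1* was at 0.50 on MCD (SE 0.32, adjusted p = 0.47), with overlapping groups.

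**Figure D5:**
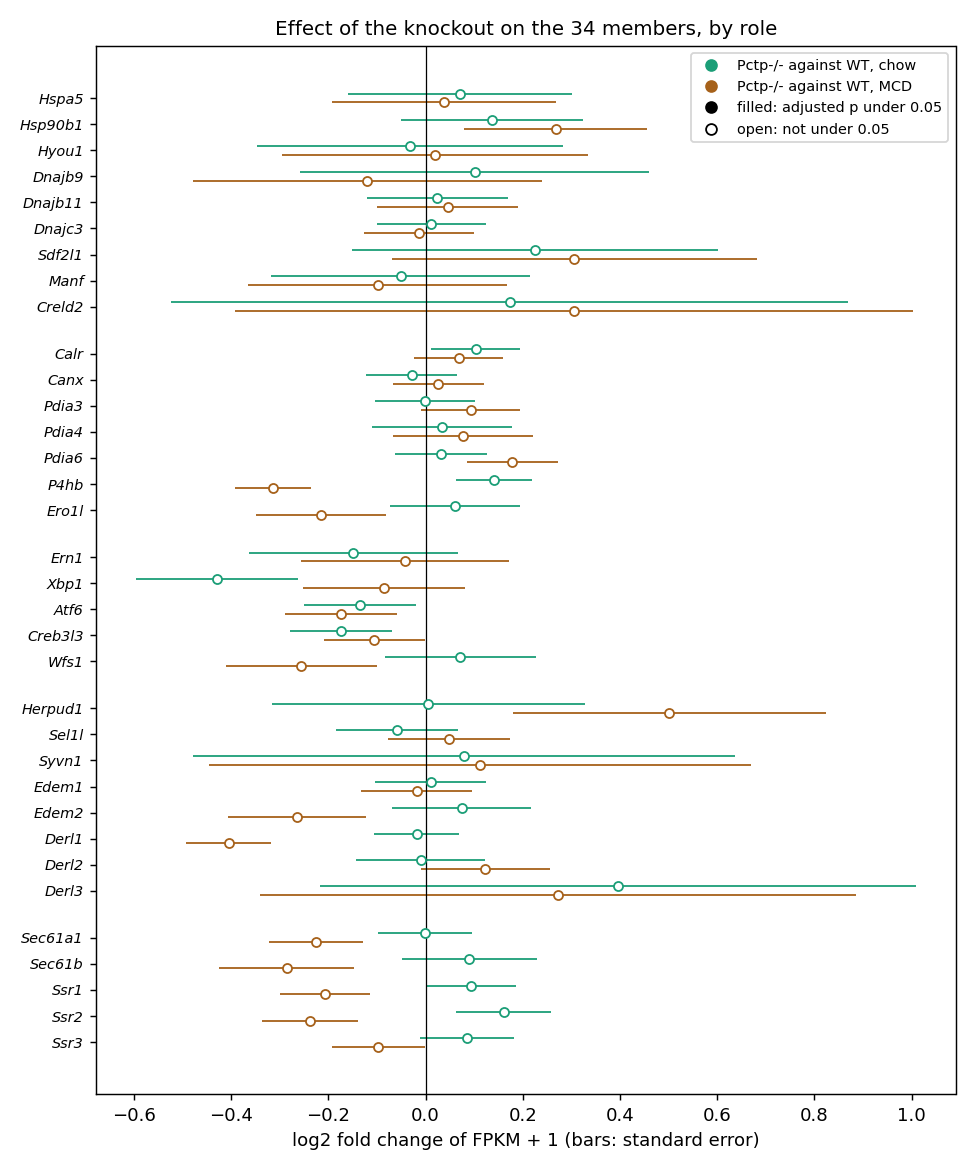
Log2 fold change of FPKM + 1 (x axis) between *Pctp*-/- and WT mice for the 34 members (y axis, grouped by role), on chow (green) and on MCD (brown), with the SE as bars. All points are open, since 0 of 34 members passed an adjusted p under 0.05 on either diet, and *Derl1* and *P4hb* on MCD lie farthest from 0 relative to their bars.

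On MCD the translocon genes had log2 fold changes with the knockout of -0.29 for *Sec61b*, -0.24 for *Ssr2*, -0.23 for *Sec61a1*, -0.21 for *Ssr1* and -0.10 for *Ssr3*, and adjusted p of 0.262 to 0.659. The FPKM values, without further scaling, did not overlap between genotypes for 4 of the 5, beside 26.6% of all tested genes. Over all tested genes the median was -0.09, and with median-of-ratios scaling, which brought that median to -0.01, the 5 genes were at -0.18 to 0.01, with *Ssr3* above 0.

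The diet effect differed between genotypes for 0 of 34 members, beside 0.0963% of all tested genes (limma), and for 4 at an unadjusted p under 0.05, beside 15.1%. *P4hb* had a difference of -0.45 (SE 0.11, adjusted p = 0.123) and *Derl1* of -0.39 (SE 0.12, adjusted p = 0.178), both towards a smaller rise in *Pctp*-/- mice. The median over all tested genes was -0.10, and with median-of-ratios scaling, which brought it to -0.02, the 2 genes were at -0.355 and -0.288. Members called in 1 genotype and not in the other (*Dnajc3*, *Ero1l*, *Creb3l3* and *Sec61a1* in WT mice, *Canx* in *Pctp*-/- mice) were thus not shown to differ between the genotypes.

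Other genes of the pathway were taken from lists chosen with earlier results of these data known, and their counts stand beside 57% of all tested genes called with the diet in WT and 50.3% in *Pctp*-/- mice. For the PERK arm, which curbs translation and raises amino acid and stress genes through ATF4, 12 genes were listed. Of these, 7 rose and 1 fell with the diet in WT mice, and 6 rose and 2 fell in *Pctp*-/- mice, 66.7% in each. Without *Pctp*-/- chow mouse 1 the counts were 8 and 2 in WT and 5 and 1 in *Pctp*-/- mice, and with median-of-ratios scaling 6 and 2 in WT mice. The largest changes were those of *Nupr1*, a stress-induced chromatin protein, *Asns*, the asparagine synthetase, and *Trib3*, a pseudokinase that feeds back on ATF4. On the log2 scale *Nupr1* rose by 4.11 and 2.26, *Asns* by 3.24 and 2.60 and *Trib3* by 2.12 and 1.74 in WT and *Pctp*-/- mice. These levels do not show that PERK was active. The diet also lacks an amino acid, methionine, and what raised the genes was not tested. *Nupr1* was at 0.120, 0.122 and 0.237 FPKM in WT and 0.284, 0.0623 and 0.367 FPKM in *Pctp*-/- mice on chow, against 29.5, 22.2 and 10.3 FPKM in WT and 6.47, 4.95 and 3.60 FPKM in *Pctp*-/- mice on MCD. It was the only gene of the 9 pathway lists called with the knockout by the adjusted test, at -1.76 on MCD (SE 0.29, adjusted p = 0.0188), where the genotypes did not overlap. Of 6 macrophage markers, 5 rose with the diet in WT and 3 in *Pctp*-/- mice. They summed to 38.1 to 95.3 FPKM on chow and to 103.5 to 187 FPKM on MCD, and their part in the diet effects was not tested.

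Of 16 other genes of signal recognition, the translocon and signal peptidase, 13 rose and 0 fell in WT mice and 10 rose and 0 fell in *Pctp*-/- mice (9 and 1 without *Pctp*-/- chow mouse 1, and 8 and 1 with TPM). *Sec61g*, the third subunit of the channel, rose by 2.13 and 1.60, *Spcs1*, of the signal peptidase, by 1.14 and 0.81, *Srp14*, of the signal recognition particle, by 0.98 in WT mice and *Srp72* by 0.82 in *Pctp*-/- mice. Of 16 other ER folding proteins, 11 rose and 0 fell in WT mice (11 and 2 with median-of-ratios scaling), and 9 rose and 4 fell in *Pctp*-/- mice (6 and 3 without *Pctp*-/- chow mouse 1). *Fkbp11*, a prolyl isomerase, rose by 1.46 and 0.94 and *Ppib*, cyclophilin B, by 1.06 and 0.92, while *Hspa13* rose by 0.96 in WT mice and *Dnajc10*, a disulfide reductase, by 0.93 in *Pctp*-/- mice. Of 16 other ERAD genes, 7 rose and 4 fell in WT mice (6 and 6 with median-of-ratios scaling) and 6 rose and 6 fell in *Pctp*-/- mice (4 and 7 without *Pctp*-/- chow mouse 1), with *Selenos*, a selenoprotein that links derlins to the p97 ATPase, at 1.14 and 1.11. Of 6 genes of the ATF6 and OASIS families and their proteases, 1 rose and 2 fell in WT mice and 1 rose and 3 fell in *Pctp*-/- mice. There *Mbtps2*, the site-2 protease that releases ATF6, rose by 0.49 and 0.45, and *Atf6b* fell by 0.63 in *Pctp*-/- mice. Of 4 tested transcripts known to be cut by IRE1, 1 rose in each genotype, *Pmp22*, by 0.83 and 0.75, and with median-of-ratios scaling 1 also fell in WT mice.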

How the data were processed

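Liver RNA-seq of 12 mice was analysed from the FPKM values per gene and library that the authors deposited, made from reads sequenced by Novogene and, per the submitters' processing notes, with the mm10 build. The aligner, the counting tool and its strand setting are not given in the sources used here, and 10 of the 34 members overlap another annotated gene, whose reads cannot be told apart (*Hsp90b1*, *Manf*, *Dnajb11*, *Pdia3*, *Pdia6*, *Herpud1*, *Syvn1*, *Derl2*, *Sec61a1*, *Ssr2*). A second deposited table holds read totals and percentages of mapping, used for depth and quality. FPKM values are not counts, so the Wald test of the study was replaced: limma 3.58.1 in R 4.3.3 was fitted to log2(FPKM + 1) for the 12466 genes whose FPKM averaged 0.5 or more, with 4 group means and a trend of variance with level. Tests were two-sided, adjusted over all tested genes by Benjamini-Hochberg and called at an adjusted p under 0.05. The added 1 makes fold changes of low genes too small. Tables were made with pandas 2.3.3 in Python 3.11.15 and figures with matplotlib 3.10.9. The fit was tested on simulated data.

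Groups follow the labels. Replicate numbers name different mice, and the correlations of the deviations of same-numbered mice were -0.10 to 0.22, so no pairing was used. Values by library are given for the 5 called members that rose most and the 5 that fell most with the diet, for any called with the knockout, and for *Hspa5*, *Hsp90b1*, *Xbp1* and *Creb3l3*. Up to 3 called genes are named per pathway list and genotype, others being said to be chosen after their values were seen. The members and lists were chosen with earlier results of these data known. Symbols come from GENCODE M21, and promoter sequences from RefSeq (GRCm38.p6). The alternatives were the pseudocount, the filter, the scaling, a fit of each comparison alone, a replicate block, limma's trend and robust options, a minimum fold change, a correction for GC content and length (12401 genes had both) and leaving out each library. The spread between mice without *Pctp*-/- chow mouse 1 and in WT mice alone was added after seeing the data. That mouse was also singled out among the libraries left out after its values were seen.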

Additional observations from a re-analysis of the deposited data

How the results depend on the processing

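FPKM give no counts per gene, so no counting error could be attached to a value, and 3 mice per group limited the precision. Of the 34 members, 0 were called with the knockout on chow and 0 for the difference of diet effects in each of 24 alternatives, and 0 with the knockout on MCD in 23 of 24, with 1 (*Derl1*, -0.40) when genes under a mean of 5 FPKM were left out. Counts for the diet were 7 in WT and 4 in *Pctp*-/- mice with a minimum absolute log2 fold change of 1, and leaving out 1 library gave 14 to 23 in WT and 12 to 19 in *Pctp*-/- mice. A replicate block gave 18 and 16 members, and under the block *Syvn1* lost its call in *Pctp*-/- mice (-1.44, adjusted p = 0.0516) while *Creb3l3* (-0.24, adjusted p = 0.0405) and *Ero1l* (0.34, adjusted p = 0.0414) gained one there. It changed no other call of a member.

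The cases in which directions turned are not all listed here, and the cause was not tested. Scaling alone turned the diet effect of several members. In WT mice *Pdia3* went from 0.08 to -0.06 and *Derl2* from 0.05 to -0.08 with median-of-ratios scaling. In *Pctp*-/- mice *Sec61a1* went from 0.05 to -0.015 with TPM. With the correction for GC content and length, the diet effect was -0.18 for *Canx*, 0.041 for *Creb3l3* and -0.041 for *Hsp90b1* in *Pctp*-/- mice, and -0.13 for *Hsp90b1* in WT mice. It also ended the calls of *Creb3l3*, *Dnajc3*, *Ero1l*, *Sec61a1* and *Syvn1* in WT and of *Syvn1* in *Pctp*-/- mice, while *Wfs1* passed in both (0.78 and 0.46). When 1 library was left out, that in *Pctp*-/- mice ranged from -1.54 (without *Pctp*-/- chow mouse 1) to 0.12 (without mouse 2 or 3) for *Creld2*, from -0.028 (without mouse 1) to 0.48 for *Hspa5* and from -0.20 (without mouse 1) to 0.14 for *Xbp1*. *Xbp1* was at -0.0061 there without *Pctp*-/- MCD mouse 3, at -0.023 with median-of-ratios scaling and at -0.050 with TPM, and its knockout effect on MCD was 0.022 with median-of-ratios scaling.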

Other observations

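The share of all tested genes called with the diet was 57% in WT and 50.3% in *Pctp*-/- mice. Of 14 genes of N-glycosylation and glycan trimming, 7 rose and 3 fell in WT mice and 6 rose and 4 fell in *Pctp*-/- mice (limma, adjusted p under 0.05), 71.4% in each. *Ostc* and *Stt3a*, of the oligosaccharyltransferase complex that works at the translocon, rose by 1.58 and 1.06 in WT and by 1.19 and 0.96 in *Pctp*-/- mice on the log2 scale, and *Krtcap2*, of the same complex, by 0.93 in WT mice. *Mogs*, the glucosidase that makes the first cut of the glycan, fell by 1.31 in *Pctp*-/- mice. Of 15 genes of transport from the ER to the Golgi, 7 rose and 1 fell in WT mice (7 and 5 with median-of-ratios scaling) and 5 rose and 2 fell in *Pctp*-/- mice (3 and 2 with TPM), 53.3% and 46.7%. *Mcfd2*, part of a cargo receptor for clotting factors, rose by 1.29 and 0.92, *Sec23a*, of the inner COPII coat, by 0.65 and 0.62, and *Sec13*, of the outer coat, by 0.95 in WT mice. *Sec16a*, which marks the exit sites, fell by 0.41 in *Pctp*-/- mice.

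*Creb3l3* fell in WT mice on the MCD diet, yet of 8 genes listed as targets of CREBH in liver, 6 rose and 1 fell in WT mice and 6 rose and 0 fell in *Pctp*-/- mice. *Fgf21*, the fasting hormone, rose by 6.23 and 4.48, *Apcs*, the acute-phase protein serum amyloid P, by 5.37 and 5.70, and *Apoa4*, an apolipoprotein, by 5.32 and 3.99 in WT and *Pctp*-/- mice. Several of these genes also answer to other factors. None of the 8 passed limma's adjusted test for the knockout on either diet or for the difference of diet effects. At an unadjusted p under 0.05 there were 0 on chow, beside 6.98% of all tested genes. On MCD there were 5, beside 16.3%, and for the difference 4, beside 15.1%.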
